A study of Caenorhabditis elegans with 2 samples.

Results

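The mitochondrial ribosomal protein genes of Caenorhabditis elegans are described here as targets of FKH-8 binding. They were taken as every nuclear protein-coding gene of the WBcel235 annotation (ce11 coordinates) whose symbol starts with mrpl- or mrps-, which gave 70 of 19973 coding genes, 41 named for the large and 29 for the small subunit. Binding was mapped by ChIP-seq, the sequencing of DNA pulled down with a chromatin protein, in mixed-sex first-stage (L1) larvae taken whole 6 hours after the starved, bleach-synchronized L1 stage. All animals were of strain OP652, with the genotype unc-119(tm4063) III; wgIs652, and stably expressed FKH-8 fused at its C terminus to a GFP-FLAG tag. The promoter driving the transgene is not given in the sources used here, and whole worms pool all cell types, so a peak cannot be assigned to a tissue. The pull-down used an anti-GFP antibody per the sample description, although the antibody label names fkh-8. The series has 1 group with 2 biological replicates, and there is no second condition to test it against. A control is mentioned in the labels but was not used here. Nothing in the labels says whether the replicates came from separate cultures beyond calling them biological.

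Mitochondria carry their own ribosome, which translates the few membrane proteins of the respiratory chain encoded in mitochondrial DNA. Its proteins are encoded in the nucleus, made by cytosolic ribosomes and imported. Many descend from bacterial ribosomal proteins and the others were added in the mitochondrial lineage. In C. elegans, lowering mitochondrial ribosomal proteins such as MRPS-5 during larval growth is known to extend lifespan and to induce the mitochondrial unfolded protein response. FKH-8 belongs to the forkhead family of transcription factors and is known to control the genes of cilia in worm sensory neurons.

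A member counts as bound here if a reproducible peak has its summit at most 1000 bp upstream or 200 bp downstream of the annotated 5′ end. The reproducible set holds the 4963 peaks that passed the authors' threshold on the irreproducible discovery rate, a measure of how well peak ranks repeat between replicates. These were exactly the highest of the 17956 pooled peaks by deposited signal, a peak height whose scaling is not stated. Signal therefore serves only to rank peaks within a list, rank 1 being the highest. The sequences under the peaks of the 4 bound members with the highest signal outside the first chromosome are shown first, since they have the highest peaks of the family. They run 100 bp to each side of the summit (position 101), 5′ to 3′ on the strand of the named gene, from the RefSeq genome of ce11. The fifth was added after its values were seen, because 1 summit there lies in the windows of a gene of each subunit, mrps-24 on one side and mrpl-1 on the other. Capitals mark every GCGC, and in mrps-7 also the single GACGC, a core sequence reported for forkhead factors of the FOXN kind. The windows are chrIV:14767801-14768001 (minus strand) for mrps-7, chrV:12728366-12728566 (plus) for mrpl-49, chrII:156022-156222 (minus) for mrpl-28, chrIV:443775-443975 (plus) for mrpl-55 and chrIV:7709797-7709997 (plus) for mrps-24. None of the 5 windows overlapped an annotated coding gene, and all 5 held GCGC.
mrps-7: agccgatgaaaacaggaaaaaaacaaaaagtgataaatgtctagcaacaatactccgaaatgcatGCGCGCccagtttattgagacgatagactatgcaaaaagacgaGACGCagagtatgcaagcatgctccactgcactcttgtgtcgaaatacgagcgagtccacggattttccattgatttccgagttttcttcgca
mrpl-49: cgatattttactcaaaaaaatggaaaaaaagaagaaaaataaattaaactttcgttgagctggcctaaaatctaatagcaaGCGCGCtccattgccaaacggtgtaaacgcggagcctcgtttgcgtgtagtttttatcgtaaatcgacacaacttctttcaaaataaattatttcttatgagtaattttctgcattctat
mrpl-28: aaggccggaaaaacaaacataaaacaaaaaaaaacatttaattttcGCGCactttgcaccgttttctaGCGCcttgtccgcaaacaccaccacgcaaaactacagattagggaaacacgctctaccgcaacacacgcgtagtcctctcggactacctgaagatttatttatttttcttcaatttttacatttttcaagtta
mrpl-55: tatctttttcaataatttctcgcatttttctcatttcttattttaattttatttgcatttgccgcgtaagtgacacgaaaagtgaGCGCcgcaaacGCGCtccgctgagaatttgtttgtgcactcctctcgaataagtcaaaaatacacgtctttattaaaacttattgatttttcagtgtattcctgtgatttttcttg
mrps-24 and mrpl-1: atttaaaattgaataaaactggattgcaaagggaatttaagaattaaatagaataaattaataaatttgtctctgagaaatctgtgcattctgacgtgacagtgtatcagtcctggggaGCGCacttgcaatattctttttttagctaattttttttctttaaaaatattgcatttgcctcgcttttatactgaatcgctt

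FKH-8 was recovered at the promoters of 21 of the 70 members (30%, exact Clopper-Pearson 95% interval 19.6 to 42.1%), against 13.8% of all coding genes (2752 of 19973). The interval covers the counting of genes only, and members that share a promoter or lie side by side are not independent. Repeated with the 4963 highest peaks of each replicate's own list (its best peaks), the count was 22 in each replicate, where best peaks bound 13.5% of coding genes in replicate 1 and 13.8% in replicate 2. A further 15 members (21.4%) had no reproducible peak but a lower peak of the pooled list in the window, against 16% of coding genes. The remaining 34 members (48.6%) had no pooled summit, against 70.2% of coding genes. No test of these shares was made, so they are given side by side and not as a difference particular to the family.

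**Figure D1:**
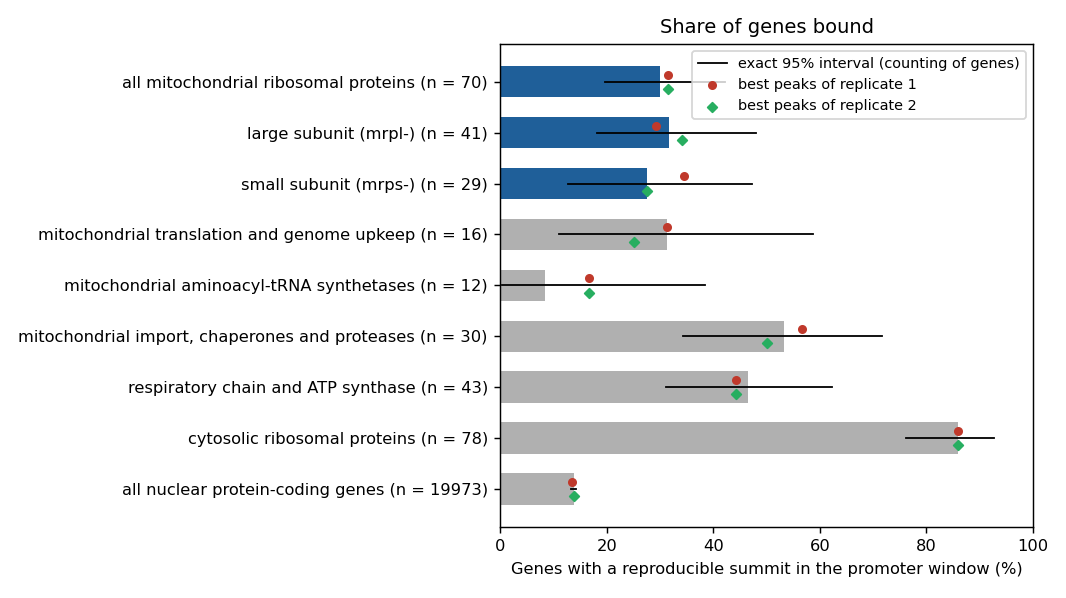
Share of genes with a reproducible summit in the promoter window (x axis, percent) for the mitochondrial ribosomal protein genes, for lists of related genes and for all coding genes (bars), with exact 95% intervals for the counting of genes (lines) and the share from the best peaks of each replicate (points). The bar of the 70 members ends at 30%, between the 85.9% of cytosolic ribosomal proteins and the 13.8% of all coding genes.

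Of the large subunit, 13 of 41 genes were bound. The highest signals were at mrpl-49, mrpl-28, mrpl-55 and mrpl-15. At mrpl-49 (WBGene00011247, V:12728631 to 12729417), a protein of the mitochondrial lineage, the peak had a signal of 508.9 (rank 316), with 260.5 in replicate 1 and 244.8 in replicate 2. At mrpl-28, a homologue of bacterial L28, it was 496.3 (rank 331), with 211.8 and 279.7 in the replicates' own lists. Signals of different lists are not on a common scale, so ranks are the better comparison: mrpl-28 stood at 454 in replicate 1 and 269 in replicate 2. At mrpl-55 the signal was 453.4 (rank 415, with ranks 415 and 409 in replicates 1 and 2), and at mrpl-15 it was 420.8 (rank 500). The peak of mrpl-15 ranked 811 in replicate 1 and 378 in replicate 2, the widest gap of these 4. These peaks were among the 500 highest of the genome, though none was among the 100 highest.

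The next large-subunit genes were mrpl-17 (signal 391.5, rank 590), mrpl-12 (295.2, rank 1024), mrpl-37 (260.3) and mrpl-18 (247.3). The L12 protein of bacteria forms the stalk that recruits translation factors, and bacterial L18 binds a small ribosomal RNA. Signals of 197.8 at mrpl-40, 164.5 at mrpl-47, 154.0 at mrpl-45 and 112.5 at mrpl-1 followed. In mammals MRPL45 sits at the tunnel exit, where the ribosome is held to the inner membrane, and bacterial L1 forms the stalk at the transfer RNA exit site. The lowest was mrpl-35 with 98.4 (rank 4778), just above the lowest reproducible peak of the genome (94.9). It was not among the best peaks of replicate 1, where it ranked 5561, and was the only bound member missing from the best peaks of either replicate.

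Of the small subunit, 8 of 29 genes were bound, and only mrps-7 reached the signals of the highest large-subunit genes. At mrps-7 (WBGene00013324, IV:14766773 to 14767730), whose bacterial counterpart starts assembly of the head of the small subunit, the signal was 550.4 (rank 255), the highest of the family, with rank 247 in replicate 1 and 265 in replicate 2. Next was mrps-35 with 262.3 (rank 1240), whose summit lay inside sws-1, a gene on the opposite strand that overlaps the start of mrps-35. The other 6 were low: mrps-10 (148.9), mrps-17 (147.9), mrps-25 (137.1), mrps-16 (135.7), mrps-24 (112.5) and mrps-28 (104.0), at ranks from 2824 to 4479. Bacterial S10, S16 and S17 are core proteins of the small subunit, and MRPS24 and MRPS28 are the mammalian counterparts of bacterial S3 and S1.

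**Figure D2:**
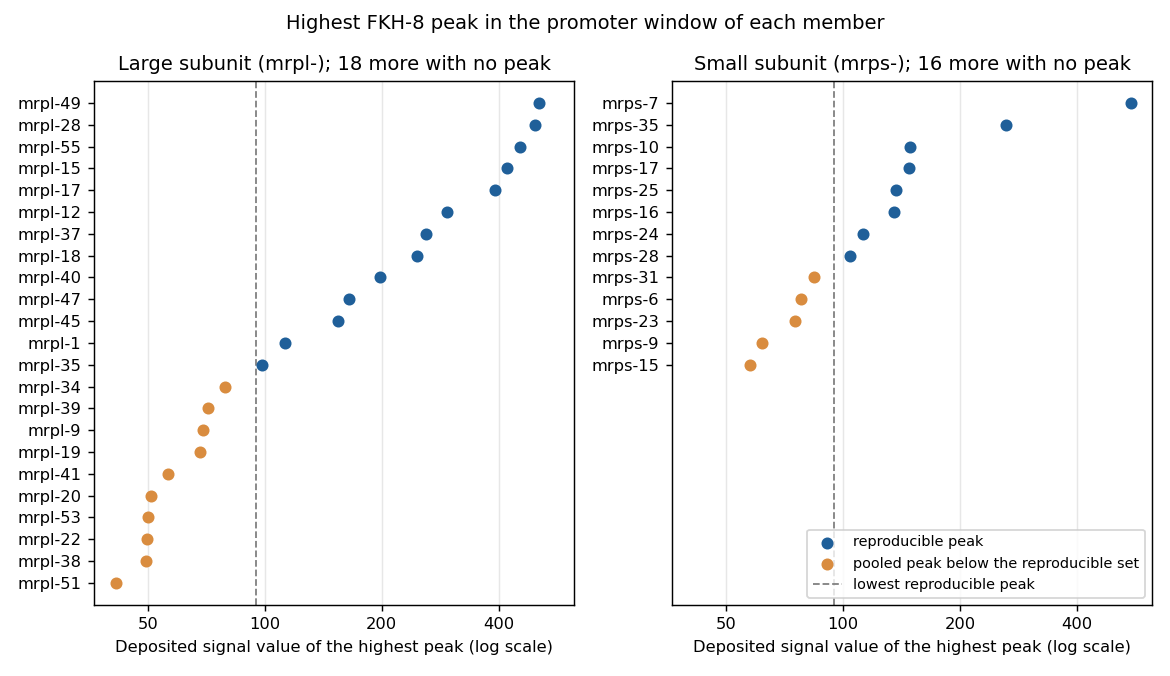
Deposited signal value (x axis, log scale) of the highest pooled peak in the promoter window of each member, for the large (left) and small subunit (right). Blue points are reproducible peaks, orange points are lower pooled peaks, and the dashed line is the lowest reproducible peak at 94.9; 18 large-subunit and 16 small-subunit genes had no peak.

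The share of genes bound did not differ between the subunits in a direction that repeated. It was 31.7% for the large subunit (95% interval 18.1 to 48.1%) and 27.6% for the small (12.7 to 47.2%), with wide overlap of the intervals. From the best peaks of the replicates the shares were 31.7% ± 3.45 for the large and 31.0% ± 4.88 for the small subunit (SD, n = 2 replicates), and the order turned between them: 12 large and 10 small genes were bound in replicate 1, and 14 large and 8 small in replicate 2. The large-minus-small difference was 4.12 percentage points, with -5.21 from the best peaks of replicate 1 and 6.56 from those of replicate 2, and it changed sign under 5 of the 10 other settings fixed for the analysis. Signal ran higher at the large subunit, with a median of 260.3 over its 13 bound genes and 142.5 over the 8 of the small subunit, in the same list. The ranges overlapped, from 98.4 to 508.9 in the large and from 104.0 to 550.4 in the small subunit. In the replicates' own lists, the same bound genes had a median rank of 1469 (large) and 2682 (small) in replicate 1, and of 1120 (large) and 2978 (small) in replicate 2, again with overlapping ranges. Of the 2481 highest reproducible peaks, 10 large-subunit genes and 2 small-subunit genes (mrps-7 and mrps-35) had one, when 8.08% of all coding genes did. That is 24.4% of the large and 6.9% of the small subunit, the widest gap in shares of the settings fixed for the analysis, at 17.5 points.

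Genes were also sorted by descent, a grouping made after the values were seen. Those listed as having a bacterial counterpart were bound at 15 of 45 (33.3%), and those listed as added in the mitochondrial lineage at 6 of 25 (24.0%). The list counts mrpl-55 with the bacterial counterparts, an assignment that is doubtful, so these counts are approximate. The exact intervals, 20 to 49% and 9.36 to 45.1%, overlapped widely. The 6 counted as additions were mrpl-37, mrpl-40, mrpl-45, mrpl-49, mrps-25 and mrps-35. Mammalian counterparts of mrps-30 and mrps-18A sit in the large subunit despite their names, and neither gene had a peak.

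The reproducible set was chosen for ranks that repeat between these replicates, so overlap of its peaks with both lists is no separate check. The values below describe the member peaks, and no share over all reproducible peaks is given beside them except where stated. The 21 bound genes had 20 distinct peaks, because mrpl-1 and mrps-24 share 1. All 20 overlapped a peak of both replicates' whole lists, which hold 19354 and 21452 peaks, and 19 were covered by a best peak of each. Their ranks in the 2 lists correlated with a Spearman coefficient of 0.916 over the 20 peaks, a description only, since the members were found in these same replicates pooled. Summits moved little, by a median of 1.5 bp in replicate 1 and 6 bp in replicate 2 against the pooled summit, and by at most 48 and 85 bp. The deposited −log10 q-value stood at the list's upper limit for 18 of the 20, against 82.5% of all reproducible peaks. It therefore does not order them. The exceptions were mrps-28 and mrpl-35, which also had the lowest signals. Counted by gene, the bound members had a median signal of 197.8 and a median rank of 1903, close to the 189.3 and 2018 of all bound coding genes. The 20 member peaks had a median signal of 222.5, against 164.0 over all reproducible peaks, which include peaks in no promoter window.

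**Figure D3:**
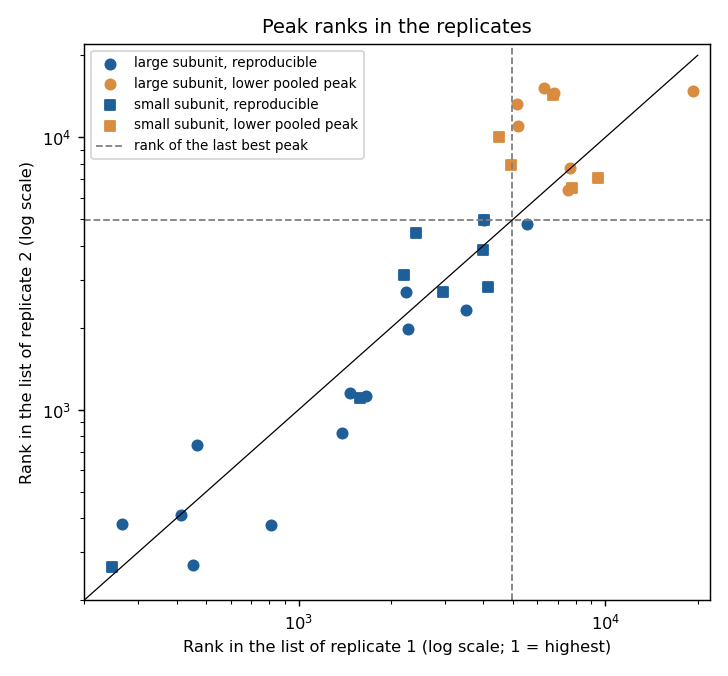
Rank of each member's peak in the list of replicate 1 (x axis) and replicate 2 (y axis), both on log scales with 1 the highest. Reproducible peaks (blue) lie along the diagonal below rank 4963 (dashed lines) except mrpl-35 in replicate 1; lower pooled peaks (orange, 12 found in both lists) scatter more, and mrpl-1 and mrps-24 share 1 point.

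Most bound members share their promoter with a neighbour. The summit fell in the window of at least 1 other coding gene at 15 of the 21 (71.4%), against 1230 of the 2752 bound coding genes (44.7%). The share was similar for bound cytosolic ribosomal protein genes (47 of 67, 70.1%), and 55% for bound respiratory chain and ATP synthase genes (11 of 20). In all 15 the partner, or one of 2 partners, was divergent: it lay on the opposite strand, with the summit between both 5′ ends, which were 178 to 857 bp apart. The summit was nearer to the member's own 5′ end in 6 of the 15. This was so for mrps-7 with Y57G11C.3, for mrpl-17 with vbh-1, an RNA helicase gene, for mrps-17 with txdc-9 and for mrps-25 with Y55F3AM.13. It also held for mrpl-49, where the summit lay 165 bp from mrpl-49 and 354 bp from rpl-28, which encodes a protein of the cytosolic large subunit. One peak (signal 112.5, rank 4081) lay between mrps-24, 148 bp away, and mrpl-1, 196 bp away, and was 161 bp from emc-6, a subunit of the endoplasmic reticulum membrane complex that overlaps the start of mrpl-1.

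At the other 9, mrpl-1 included, the partner's 5′ end was the nearer one. The summit of mrpl-37 lay 658 bp upstream of that gene but 199 bp upstream of lin-38, and that of mrpl-40 lay 160 bp from mrpl-40 but 18 bp from F54C4.4. The summit of mrps-10 was 317 bp away and 243 bp from npp-25, a nuclear pore gene, and the peak of mrpl-12 was 500 bp away and 233 and 239 bp from Y39A1A.22 and Y39A1A.21. Peaks of mrpl-18, mrpl-35, mrpl-45 and mrps-28 were likewise nearer to C14B9.8, M01F1.4, Y119D3B.12 and Y43F8C.7. Assigning each peak only to the nearest 5′ end left 12 bound members (6 large, 6 small), when 10.6% of coding genes were bound. Which gene of a divergent pair a peak acts on cannot be told apart in these data. The 6 members whose summit lay in no other coding gene's window were mrpl-28, mrpl-55, mrpl-15, mrps-35, mrpl-47 and mrps-16. Of these, mrps-35 still has its summit inside sws-1, outside that gene's window. With the 5′ end of any transcript 16 of 21 summits were shared, and with windows of 2000 bp upstream and 500 bp downstream 21 of 24.

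Summits lay a median of 171 bp upstream of the member's 5′ end (range 12 to 658 bp), against 233 bp over all bound coding genes. In 12 of the 21 (57.1%) the distance was between 100 and 200 bp, against 23.9% of all bound coding genes. The summits of 5 members were farther than 300 bp, namely mrpl-37, mrpl-15, mrpl-12, mrpl-45 and mrps-10, and 4 of these had a nearer divergent partner. The exception was mrpl-15, 633 bp upstream with no partner. The nearest was mrpl-47 at 12 bp. No reproducible summit lay downstream of a member's 5′ end, and few did over all bound coding genes (138 of 2752). Of the 20 member summits, 19 were outside coding genes, and the share over all reproducible peaks is not given here. For many worm genes the annotated start is where a leader is trans-spliced on, so transcription can begin upstream of it and closer to the summit.

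**Figure D4:**
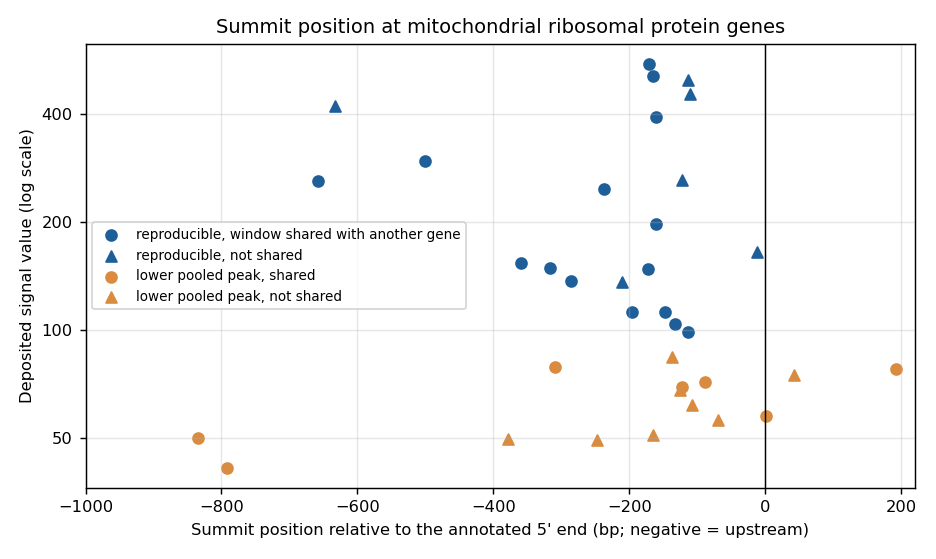
Position of each member's summit relative to its annotated 5′ end (x axis, bp, negative upstream) against deposited signal (y axis, log scale). Circles mark summits that also lie in another coding gene's window and triangles those that do not; 12 of the 21 reproducible summits (blue) lie 100 to 200 bp upstream.

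Many mitochondrial ribosomal protein genes lie close behind another gene, and those were almost never bound at their own 5′ end. In C. elegans, operons place several genes behind a promoter upstream of the first one, and trans-splicing separates their transcripts. Operons are not marked in the annotation used here, so a gene was counted as lying behind a close gene when its nearest upstream coding gene was on the same strand with its end at most 500 bp away. This held for 29 of the 70 members (41.4%), against 20% of all coding genes. It also held for 58.3% of mitochondrial aminoacyl-tRNA synthetase genes, 37.2% of respiratory chain and ATP synthase genes and 36.7% of mitochondrial import, chaperone and protease genes. For mitochondrial translation and genome upkeep it was 31.2%, and for cytosolic ribosomal protein genes 10.3%. The gaps ahead of the 29 members had a median of 105 bp, and 19 of the 29 were between 80 and 120 bp. Of these 29 genes, 1 was bound (3.45%, exact interval 0.0873 to 17.8%), against 8.64% of the coding genes in the same position. That gene was mrpl-1, whose upstream gene emc-6 overlaps it and shares its peak. Of the other 41 members, 20 were bound (48.8%, interval 32.9 to 64.9%), against 15.1% of coding genes in that position. Replicate 1 gave 1 of 29 and 21 of 41, and replicate 2 gave 2 of 29 and 20 of 41. Of the 34 members with no pooled peak, 24 were behind a close gene, against 3092 of the 14023 coding genes with no pooled peak.

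The chains of close genes were therefore followed to their first gene, a step added after these counts were seen. The first gene was bound for 18 of the 29 members (62.1%, interval 42.3 to 79.3%), against 26.9% of the coding genes behind a close gene. The best peaks gave 17 in replicate 1 and 19 in replicate 2. With gaps of at most 200 bp it was 13 of 22 members (59.1%), against 32.6% of coding genes behind such a gap. With gaps up to 1000 bp it was 21 of 34 (61.8%), against 23.2%. The highest first-gene peaks were those of rpn-3, a proteasome subunit gene ahead of mrpl-32 (signal 858.4, rank 64), F29B9.11 ahead of mrps-21 (812.9, rank 73) and clsp-1 ahead of mrpl-54 (607.4, rank 183). These 3 ranked above every peak in a member's own window. Their summits lay 199, 324 and 254 bp upstream of the first gene. Next were num-1 ahead of mrps-12 (472.3), nrde-2, of nuclear RNA interference, ahead of mrps-14 (464.6), and atp-2, the beta subunit of the mitochondrial ATP synthase, at the head of the chain that holds mrps-26 (343.8). The summits lay 774 bp upstream of num-1, 920 bp upstream of nrde-2 and 256 bp upstream of atp-2. The gaps ahead of mrpl-32, mrpl-54 and mrps-12 were 410, 373 and 460 bp, wider than the 80 to 120 bp of most. These 3 members are not counted with gaps of at most 200 bp. Gaps were 113 bp ahead of mrps-21, 105 bp ahead of mrps-14 and 81 bp ahead of mrps-26.

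The chain of tag-124 leads to mrpl-53 (328.2), that of misc-1, a mitochondrial carrier gene, to mrpl-41 (290.5), and that of eif-3.E, a translation initiation factor gene, to mrps-30 (290.5). One chain carries a gene of each subunit: natc-1 (signal 205.3, rank 1807) is followed by mrps-2 and then mrpl-4. Lower first-gene peaks stood ahead of mrpl-48 (vps-37, 184.6), mrps-18.C (T14B4.3, 178.6), mrps-33 (F21D5.7, 152.3), mrps-11 (W04D2.4, 139.4), mrpl-23 (fars-1, 121.8) and mrps-27 (uev-1, 105.0). The summits lay 816 bp upstream of misc-1 and 889 bp upstream of fars-1. For the other bound first genes of this paragraph they lay 0 to 455 bp upstream. Whether a first-gene summit lies nearer to another gene is not given here. For the remaining 11 members the first gene was not bound, among them mrps-5, behind sel-1, and mrps-22, which follows dap-3, the gene of another small-subunit protein. Counted by its own window or by the first gene of its chain, 38 of 70 members (54.3%) were bound, against 18.5% of coding genes. Whether the genes of a chain are transcribed together was not measured here.

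**Figure D5:**
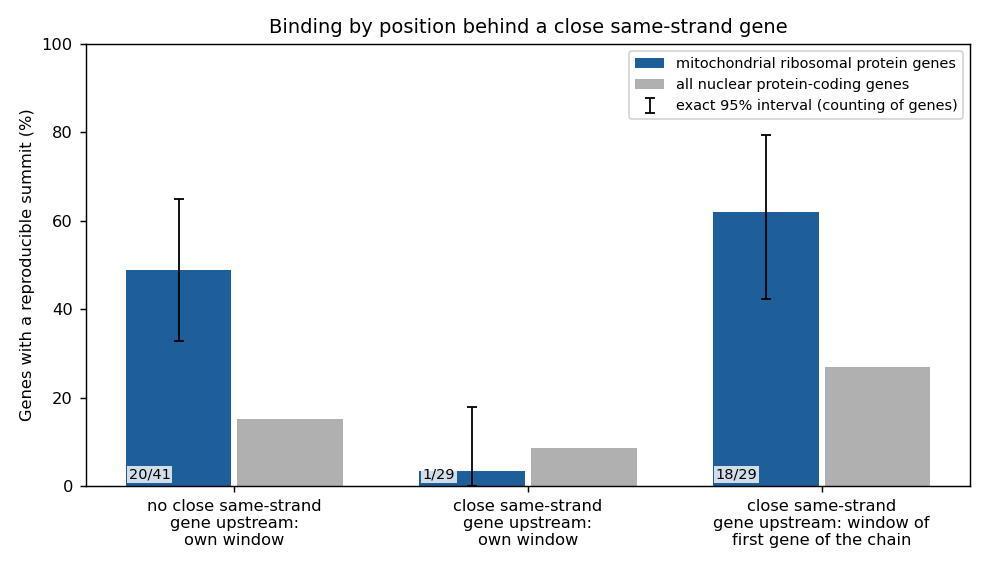
Percent of genes with a reproducible summit (y axis) for mitochondrial ribosomal protein genes (blue, with counts and exact 95% intervals) and all coding genes (grey), by whether a close same-strand gene lies upstream. Members behind a close gene were bound at their own window in 1 of 29 cases, and the first gene of their chain was bound in 18 of 29.

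The 15 members with only a lower pooled peak were 10 of the large and 5 of the small subunit, with signals from 41.4 to 84.3 and a median of 61.8. Nearest to the reproducible set was mrps-31 (84.3, rank 5680), which ranked 4912 in replicate 1, within the best peaks, and 7900 in replicate 2. It was followed by mrpl-34 (79.0), mrps-6 (77.8), mrps-23 (75.03), mrpl-39 (71.6), mrpl-9 (69.2), mrpl-19 (68.0) and mrps-9 (61.8). Several of these were uneven between the replicates, such as mrps-6, at rank 4498 in replicate 1 and 9998 in replicate 2, and mrpl-19, at 5169 and 13230. The last 7 were mrps-15 (57.7), mrpl-41 (56.2), mrpl-20 (50.9), mrpl-53 (49.96), mrpl-22 (49.6), mrpl-38 (49.3) and mrpl-51 (41.4). Of the 15 peaks, all overlapped a peak of replicate 2 and 12 one of replicate 1, where those of mrpl-53, mrpl-22 and mrpl-38 had none. None reached the upper limit of the −log10 q-value.

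Lower peaks lay at shared windows in 7 of 15 cases, of which 4 had a divergent partner: lid-1 at mrpl-34, gly-7 at mrpl-39, T12G3.11 at mrpl-51 and kin-3, encoding the catalytic subunit of casein kinase II, at mrpl-9. The share over all coding genes with only a lower peak is not given here, so this count cannot be placed as high or low. The summits of 3, mrps-6, mrps-23 and mrps-15, lay downstream of the 5′ end. No reproducible member peak lay there, and few of those of all bound coding genes did. In the window of mrps-6 the proteasome gene rpn-8 was a partner, and asg-1, a subunit of the ATP synthase, was one at mrps-15. A lower second peak was found at mrpl-15 (47.3), mrps-6 (53.1) and mrpl-39 (39.7). Of the 34 members with no pooled summit, the 10 with no close same-strand gene upstream were mrpl-10, mrpl-11, mrpl-16, mrpl-36, mrpl-44, mrpl-46, mrps-18A, mrps-18B, mrps-18C and mrps-34. Among the other 24 were mrps-5, mrps-12, whose bacterial counterpart lines the decoding site, mrpl-2 and mrpl-4. A missing peak means that none was listed, not that binding was absent, since the lists do not give their read depth.

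Sequence within 100 bp of the 20 member summits was searched on both strands for 7 consensus sequences. None of the short ones is part of another. The forkhead site was searched as the exact sequence GTAAACA only, so the count does not cover other forms of the site. GTAAACA was found at 1 of 20 (5%, at mrpl-35), against 4.05% of all reproducible peaks and 3.49% of windows of the same length directly upstream of coding genes. GACGC was found at 3 (15%, at mrps-7, mrpl-37 and mrpl-35), against 30.7% of peaks and 12.8% of upstream windows. GAGAGA was at 5 (25%), against 34.6% and 16.4%, GGGCGG at 1 (5%), against 8.62% and 6.01%, and TTTCAG at 4 (20%), against 21.7% and 36.9%. The X-box, the site of RFX factors, was found at 1, the peak of mrps-10 (5%, against 3.49% and 1.89%). CACGTG was at 0 of 20, which allows a share of up to 15% (3 of 20, the limit used here for a count of 0), against 6.99% and 4.23%. With 20 sequences, each match moves a share by 5 points.

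The GCGC in capitals in the printed sequences was noticed there and counted afterwards, as 1 of 15 words tried. It lay within 100 bp of 14 of 20 member summits (70%), against 44.3% of all reproducible peaks and 20.4% of upstream windows. The 14 include the 5 printed sequences in which it was noticed, and of the 15 member peaks not printed 9 held it (60%). Among the other words tried, GCTCC was at 13 of 20 (65%, against 26.3% of peaks and 14.9% of upstream windows) and ATTGG at 1 (5%, against 30.6% and 32.4%). GC content was not higher at member peaks, at 37.2% on average (range 26.9 to 52.2%) against 41.4% over all peaks. No test was made on a word picked in this way, and a match names no factor.

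Other genes that serve mitochondrial protein synthesis were counted by the same rule, from lists of gene symbols. Of mitochondrial translation and genome upkeep, 5 of 16 annotated genes were bound (31.2%). These were tufm-2 (signal 313.9) and tufm-1 (162.0), which encode mitochondrial elongation factor Tu, gfm-1 (232.7), mitochondrial elongation factor G, twnk-1 (121.1), the helicase of mitochondrial DNA, and mtss-1, its single-strand binding protein (112.1). Of 12 mitochondrial aminoacyl-tRNA synthetases 1 was bound, ears-2 (360.6), though 6 more had a lower pooled peak. Of mitochondrial import, chaperone and protease genes, 16 of 30 were bound (53.3%), the highest being hsp-60 (954.9), ddp-1 (510.2), mtx-1 (458.4) and tomm-20 (359.2), a receptor of the outer-membrane import pore. Respiratory chain and ATP synthase genes were bound at 20 of 43 (46.5%), with cox-5A at 1281 and cox-5B at 1028. The bound gene ucr-1 is in both this list and the import list, and counts in each. Of cytosolic ribosomal protein genes 67 of 78 were bound (85.9%). The median signal was 197.8 and the median summit distance 171 bp upstream for bound mitochondrial ribosomal protein genes, against 362.9 and 302 bp for bound cytosolic ones. All these shares stand beside 13.8% of coding genes, and the differences between lists were not tested.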

How the data were processed

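The authors deposited peak lists in narrowPeak format on ce10 and ce11. The 4 ce11 lists (each replicate, both pooled, and the reproducible set) were used, since the annotation is on ce11. Per the deposited file lists, replicate and pooled lists were derived from alignments and a control, and include background regions. The aligner, peak caller and cutoff are not given in the sources used here. The deposited signal value (column 7) served for ranks within 1 list, and the deposited −log10 q-value (column 9) only for saying whether it stood at its limit. The files hold no reads, so depth is unknown.

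Genes are the 19973 nuclear protein-coding genes of Ensembl release 115. Sequence is RefSeq's copy of the same assembly, and all peaks lay within its chromosomes. Summits (column 2 plus column 10) were assigned to promoter windows reaching 1000 bp upstream and 200 bp downstream of a gene's 5′ end. Upstream windows for the motif background end at these same 5′ ends. Window assignment was tested on simulated summits, and the planted answer came back in 5 of 5 cases of 200 genes each. Intervals are exact Clopper-Pearson 95% intervals and cover the counting of genes only; for a count of 0 the limit printed is 3 counts of the total. Python 3.11.15, pandas 2.3.3, NumPy 2.4.6 and SciPy 1.17.1 were used. No test was run, since there was 1 group of 2 replicates.

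Alternatives were other windows, peak thresholds, the overlap rule, transcript starts, the nearest gene, and each replicate's best peaks. The members, lists and rules were chosen with earlier results of these data known. Every member could be named, bound and lower-peak members with values, as could partners at their summits and up to 4 bound genes of each list by signal. The fifth mitochondrial translation gene, ucr-1 and the first genes of chains were named beyond that rule, after their values were seen. Of 24, 15 and 31 listed symbols in the 3 mitochondrial lists, 16, 12 and 30 matched the annotation.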

Additional observations from a re-analysis of the deposited data

How the results depend on the processing

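The count of bound members stayed within 1.5 times of 21 under 7 of the 10 alternatives fixed for the analysis, and each replicate's best peaks gave 22. It was 12 with the 2481 highest reproducible peaks or the nearest 5′ end, 36 with all pooled peaks (29.8% of coding genes), and 38 with the first gene of a chain counted, an alternative chosen after seeing the data. For the large subunit all pooled peaks gave 23, the nearest 5′ end 6 and the chains 20, and leaving out a replicate 12 to 14. For the small subunit the 2481 highest peaks gave 2, double the pooled peaks 13, all pooled peaks 13 and the chains 18, and leaving out a replicate 8 to 10. The large-minus-small difference of 4.12 points became -0.757 with windows from 500 bp upstream to 100 bp downstream, -0.336 with 2000 and 500 bp, -0.925 with double the pooled peaks, -6.06 with the nearest 5′ end and -13.3 with chains, was 17.5 with the 2481 highest peaks, 11.3 with all pooled peaks and 0.603 with mrps-30 and mrps-18A counted as large (chosen after seeing the data), and ran from -5.21 to 6.56 without a replicate. The cause was not tested. The median signal of 197.8 became 164.5 in the narrower and 237.7 in the wider window, 343.3 with the 2481 highest peaks, 137.1 with double and 112.5 with all pooled peaks, 247.3 by overlap and 326.9 by the nearest 5′ end. It was not computed from the replicates' lists, whose scales differ. Shared summits fell to 7 with the 2481 highest peaks, where 12 members were bound, and the share over all genes is not given for that setting. Members with only a lower peak numbered 24 with those peaks and 5 with double the pooled peaks, and none can be counted with all of them. Of members behind a close gene, 2 were bound at their own window with gaps up to 1000 bp, and 1 to 2 without a replicate. No paired analysis was possible because there was 1 group.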

Other observations

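No mitochondrial ribosomal protein gene lies on the X chromosome, which holds 2731 of the 19973 coding genes (13.7%). Chromosome III holds 22 of the 70 members (31.4%), against 13.2% of coding genes, and 7 of these 22 were bound, among them mrpl-12, mrpl-18, mrpl-40, mrps-10 and mrps-17. Of all coding genes on chromosome III, 20% were bound. On chromosome I, 3 of 15 members were bound, near the 17.5% of its coding genes. On chromosome II it was 3 of 12 members, against 12.4% of coding genes, on IV 5 of 11, against 13.1%, and on V 3 of 10, against 9.85%.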
